A study of Mus musculus with 16 samples.

Results

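The ERK response and feedback genes are 10 genes, chosen by name, that mammalian cells switch on or adjust when the kinase ERK is active; 7 encode proteins that restrain the relay and 3 encode transcription factors. They are Dusp4, Dusp6, Spry1, Spry2, Spry4, Spred1, Spred2, Etv4, Etv5 and Egr1. The list was chosen with earlier results of these data known, so its counts beside a share of all genes are a description. All 10 were found among the 21455 entries of the expression table that carry a gene symbol, and all 10 passed the filter on low values, a normalized count of at least 1 in 2 or more libraries. RNA was sequenced from E14tg2a, a mouse embryonic stem cell line, in 16 libraries that form 8 groups of 2. The cells carry 3 labels, WT, DKO and P14. WT cells and cells labelled DKO were sampled while in 2i medium and on day 2 and day 4 of induction, and cells labelled P14 on day 2 and day 4. The genotypes that the series names are wild type, a cis knockout of Prdm14 and overexpression of Prdm14, and DKO and P14 were matched to the latter pair by elimination. The 2i medium was serum-free N2B27 with PD0325901 (1 µM), which inhibits MEK, CHIR99021 (3 µM), which inhibits GSK3β, and LIF (1000 U/mL). Induction towards epiblast-like cells, the in vitro counterpart of the early postimplantation epiblast, used N2B27 with bFGF (12 ng/mL) on fibronectin. No transgene promoter and no clone is named in the labels, so a genotype cannot be told apart from a cell line.

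ERK is the last kinase of a relay in which growth factor receptors, RAS, RAF and MEK activate one another in turn. In mouse embryonic stem cells this relay is driven largely by FGF4 that the cells secrete, its activity pushes cells out of the naive state, and blocking MEK in 2i medium holds them there. Active ERK raises transcription of its own brakes, phosphatases that switch ERK off and Sprouty and Spred proteins that act near RAS. It also raises transcription factors that carry its response into the nucleus, such as the ETS proteins Etv4 and Etv5 and the zinc finger protein Egr1. RNA levels of these genes are often used as a readout of the relay, although other inputs regulate them too. In bulk libraries such as these, fewer cells that express a gene and less RNA per cell cannot be told apart.

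Values below are normalized read counts, each library being scaled by 1 factor. A difference is the difference of mean log2(normalized count + 1) between groups, with its standard error (SE), and a fold change is on that same scale. A gene is called where the adjusted p of limma, a linear model fitted to all 21450 genes that passed the filter, is under 0.05. Counts at an unadjusted p have no share over all genes beside them and are given only as a description. The libraries held 20696338 to 32710605 recovered reads. Libraries of a group correlated at 0.965 to 0.977 over all genes, and whether they came from separate cultures is not stated, so the p-values reflect no more than the spread between libraries, which may be technical. In the check of the labels, both libraries labelled DKO held more Prdm14 than both WT libraries at each stage, for example 595 and 571 against 219 and 166 at day 4, and those labelled P14 held 7054 and 8014 at that stage. The match of DKO to a knockout of Prdm14 was thus not borne out by Prdm14 RNA and stays unsettled. Every direction given for DKO is therefore that of the libraries labelled DKO. Of 5 embryonic stem cell markers, Sox2 and Sall4 were abundant in each group (group means from 2836 up). Utf1 and Epcam varied widely, with group means from 39.95 to 1145 and from 112.7 to 814. Pou5f1 was listed at low levels throughout (0.903 to 27.1), and whether that reflects how its reads were counted was not tested.

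The promoter windows of 3 of these genes are given. Dusp6 stands for the genes that rose on leaving 2i medium, as described below, and Etv5 for the ETS factors that fell. Spry2 was taken because its window alone, among the members' windows searched, held the ETS core motif. Each window is from RefSeq (GRCm38.p6), runs from 250 bases before to 50 bases after an annotated start, and is written from 5′ to 3′ on the strand of the gene. Capitals mark the ETS core CCGGAA. The windows are chr10:99262981-99263280 (plus strand) for Dusp6, chr14:105896770-105897069 (minus strand) for Spry2 and chr16:22439521-22439820 (minus strand) for Etv5.
Dusp6 window: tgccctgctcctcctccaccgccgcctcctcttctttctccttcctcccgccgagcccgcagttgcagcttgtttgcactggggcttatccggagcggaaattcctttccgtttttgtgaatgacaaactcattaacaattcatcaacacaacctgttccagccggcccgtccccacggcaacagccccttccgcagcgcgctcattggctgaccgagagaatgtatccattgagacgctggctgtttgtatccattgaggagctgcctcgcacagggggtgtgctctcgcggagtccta
Spry2 window: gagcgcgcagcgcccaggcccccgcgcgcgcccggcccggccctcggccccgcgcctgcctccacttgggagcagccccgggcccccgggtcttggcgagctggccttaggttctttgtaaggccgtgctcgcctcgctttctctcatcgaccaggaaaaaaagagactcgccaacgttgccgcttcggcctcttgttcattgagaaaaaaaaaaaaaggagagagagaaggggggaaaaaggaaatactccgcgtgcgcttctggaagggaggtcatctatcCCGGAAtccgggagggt
Etv5 window: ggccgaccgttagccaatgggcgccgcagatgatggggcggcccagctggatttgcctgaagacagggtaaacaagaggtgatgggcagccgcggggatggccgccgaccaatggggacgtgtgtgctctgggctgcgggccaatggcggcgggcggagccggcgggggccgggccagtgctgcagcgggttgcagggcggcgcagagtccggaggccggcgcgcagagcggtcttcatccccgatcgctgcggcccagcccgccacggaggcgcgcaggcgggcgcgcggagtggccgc
Windows of 6 of the members were searched, 7 in number, and none of Dusp4, Spry4, Etv4 or Egr1. Of the 7, 1 held CCGGAA on either strand, beside 14.9% of 32851 windows of this length across the genome. The AP-1 motif TGANTCA, the cyclic AMP response motif TGACGTCA and the CArG box bound by serum response factor, searched on both strands, did not occur in these windows, and they occurred in 7.81%, 1.79% and 1.63% of all windows. A match is only a run of letters, and a missing match says only that the letters are not in the window.

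**Figure D1:**
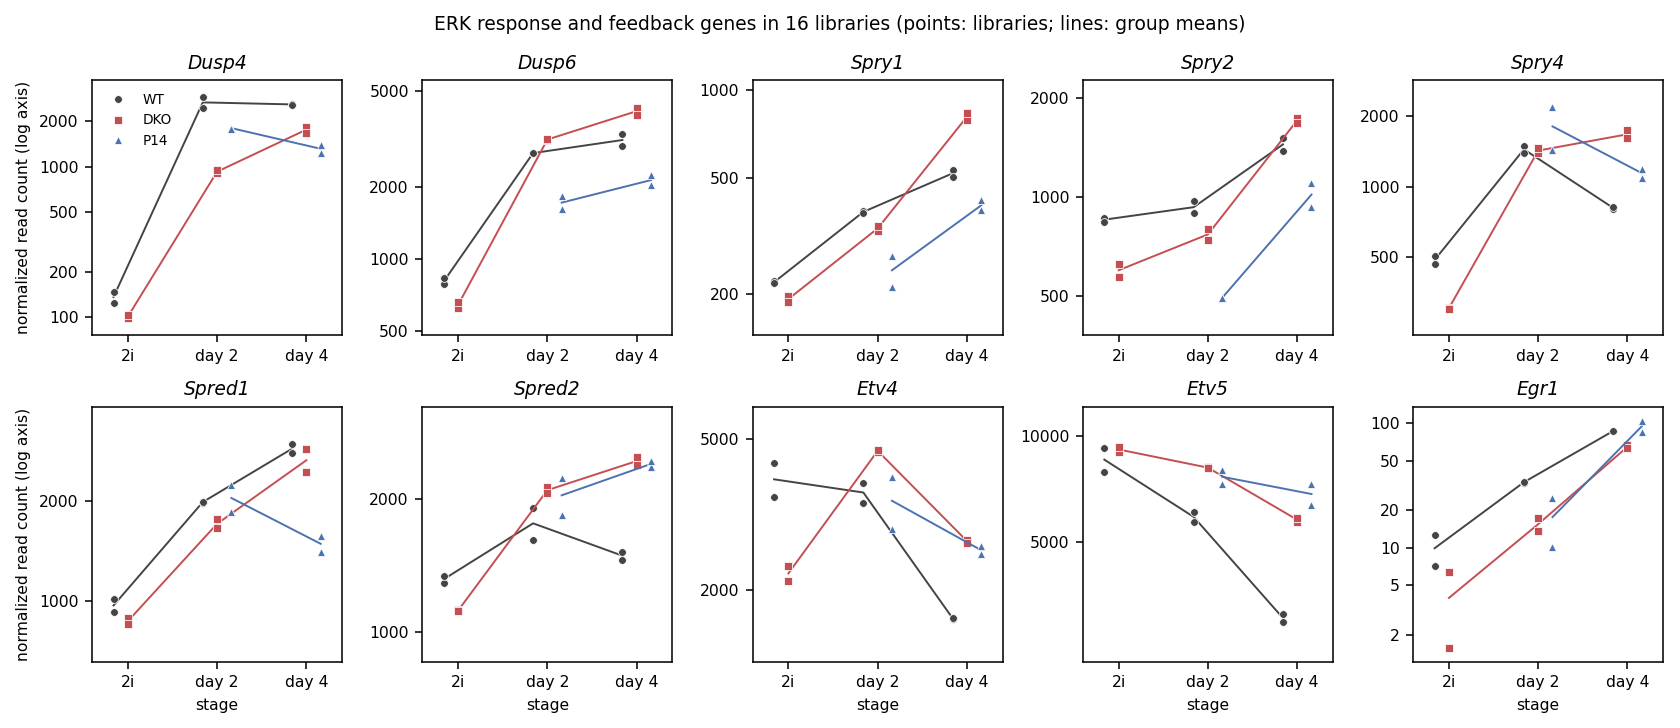
Normalized read count (log axis) of each of the 10 genes by stage, with 1 point per library and lines through group means (black circles, WT; red squares, DKO; blue triangles, P14; P14 has no 2i group). Dusp4, Dusp6, Spry4, Spred1 and Egr1 start low in 2i medium, while Etv5 starts at its highest WT level and falls.

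On leaving 2i medium, WT cells showed a rise of both phosphatase genes, of Spry1 and Spry4, of both Spred genes and of Egr1. Etv5 fell. The step removed PD0325901, CHIR99021 and LIF together and added bFGF, so release of MEK cannot be told apart from the other changes. Between 2i medium and day 2, 7 of the 10 genes were higher and 1 was lower, where 12.7% of all genes tested were called higher and 10.8% lower. Their median log2 difference was 0.92, beside 0.03 over all genes. Spry2 and Etv4 were not called in this step.

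Dusp4 (chromosome 8, 34807297 to 34819894, plus strand, GRCm38) encodes a nuclear phosphatase that removes the activating phosphates of ERK and related kinases. WT libraries held 125 and 147 in 2i medium, 2884 and 2462 at day 2, and 2605 and 2577.5 at day 4. Both libraries of either day lay far above both 2i libraries, and the libraries of the days overlapped. The rise to day 2 was 19.5-fold (log2 4.29, SE 0.11, limma adjusted p = 3.0e-12), the largest step of any of the 10 genes between neighbouring stages, and from day 2 to day 4 the difference was log2 -0.04 (95% interval -0.28 to 0.20). Dusp6 (chromosome 10, 99263231 to 99267489, plus strand), whose product is a cytoplasmic phosphatase selective for ERK, stood at 784 and 829 in 2i medium, at 2768 and 2752 at day 2, and at 2956 and 3302 at day 4. The 2i libraries were again apart from all later ones. Dusp6 rose 3.42-fold to day 2 (SE 0.097 on the log2 scale, adjusted p = 3.1e-09) and did not pass between day 2 and day 4 (log2 0.18, adjusted p = 0.179).

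The Sprouty genes, whose products damp receptor tyrosine kinase signalling at the level of RAS and RAF, followed 3 different courses in WT cells. Spry1 (chromosome 3, 37639947 to 37644598, plus strand) rose at each step, from 221 and 217 in 2i medium to 384 and 379 at day 2 and to 533 and 502 at day 4. Its steps were log2 0.80 (SE 0.13, adjusted p = 3.4e-04) and 0.44 (SE 0.13, adjusted p = 0.0184). The call of the step to day 4 for Spry1 was lost without WT day 2 replicate 1 (0.45) or replicate 2 (0.43), without WT day 4 replicate 1 (0.40) or replicate 2 (0.48), and with libraries centred on the median gene (0.26). Spry2 (chromosome 14, 105891947 to 105896819, minus strand) held 867 and 843 in 2i medium, 895 and 971 at day 2, and 1386 and 1510 at day 4. It moved late, by 1.55-fold between day 2 and day 4 (log2 0.63, adjusted p = 3.0e-04), after a first step of 1.09-fold (95% interval of the log2 difference -0.10 to 0.35, adjusted p = 0.455). Spry4, on chromosome 18, had 468 and 507 in 2i medium, 1493 and 1399.5 at day 2, and 802 and 823 at day 4. It peaked at day 2, rising 2.96-fold (log2 1.57, adjusted p = 1.2e-06) and then falling 1.78-fold (log2 -0.83, adjusted p = 4.6e-04), with no overlap between stages. Annotated genes on the other strand overlap Spry1 and Spry4, and since the counting strand is not given, reads of those partners cannot be told apart from theirs.

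The Spred genes encode membrane proteins that bring the RAS-inactivating protein neurofibromin to the plasma membrane. Spred1 (chromosome 2, 117121374 to 117182279, plus strand) climbed from 1013 and 926 in 2i medium to 1983 and 1997 at day 2 and to 2799 and 2970.2 at day 4. Both steps of Spred1 were called, 2.05-fold (log2 1.04, SE 0.11, adjusted p = 5.0e-06) and 1.45-fold (adjusted p = 0.00169). Spred2 (chromosome 11, 19924375 to 20024026, plus strand) had 1290.4 and 1340.2 in 2i medium, 1903 and 1613 at day 2, and 1455 and 1518 at day 4. Its libraries at day 2 were above those in 2i medium (log2 0.41, SE 0.11, adjusted p = 0.00951), and the step to day 4 did not pass (-0.24, adjusted p = 0.0994). The first call for Spred2 was lost without WT 2i replicate 1 (0.39) or WT day 2 replicate 1 (0.30), and the second step was called without WT day 2 replicate 2 (-0.36).

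Etv4 and Etv5, ETS transcription factors of the PEA3 subfamily that are known FGF response genes, went the other way. Etv5 (chromosome 16, 22381309 to 22439719, minus strand) fell at each step, from 7907 and 9217 in 2i medium to 6069 and 5688 at day 2 and to 2948 and 3099 at day 4. No stage overlapped another, and the falls were 1.45-fold (log2 -0.54, SE 0.10, adjusted p = 0.00129) and 1.94-fold (log2 -0.96, adjusted p = 4.5e-06). Etv4 (chromosome 11, 101769742 to 101785371, minus strand) stood at 3520 and 4322 in 2i medium and at 3836 and 3403 at day 2, which overlap, and then at 1687 and 1691 at day 4. Its fall of 2.14-fold came between day 2 and day 4 (log2 -1.10, SE 0.13, adjusted p = 1.3e-05), after a first difference of -0.11 (95% interval -0.39 to 0.17). Over the whole course Etv5 was 2.82-fold and Etv4 2.31-fold lower at day 4 than in 2i medium (adjusted p = 1.6e-08 and 2.5e-06).

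Egr1, an immediate early gene that encodes a zinc finger transcription factor and lies on chromosome 18, was scarce. WT libraries held 7.20 and 12.7 in 2i medium, which are 6 and 15 reads, 33.5 and 33.9 at day 2, and 86.3 and 87.6 at day 4. The stages did not overlap. The rise of Egr1 from 2i medium to day 2 was called (log2 1.71, SE 0.52, adjusted p = 0.025), but not without WT 2i replicate 1 (1.34), WT day 2 replicate 1 (1.72) or WT day 2 replicate 2 (1.70). The step from day 2 to day 4 did not pass (1.34, adjusted p = 0.0591) and was called with a pseudocount of 4, with limma-voom on recovered reads and in a fit of these 4 libraries alone. The difference between 2i medium and day 4 was 8.29-fold (log2 3.05, SE 0.52, adjusted p = 2.0e-04).

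From day 2 to day 4 of WT cells 3 genes were higher, namely Spry1, Spry2 and Spred1, and 3 were lower, namely Spry4, Etv4 and Etv5, where 17.2% of all genes were called higher and 15.8% lower. The median over the 10 genes was 0.07, beside 0.02 over all genes. Over the whole course, 7 were higher and 2 lower, where 21.9% and 18.7% of all genes were called, and Spred2 was the member that did not pass (log2 0.18, 95% interval -0.05 to 0.40). The median of all genes in the whole course moved from 0.01 to -0.20 with libraries centred on the median gene and to 0.17 with libraries scaled to their total over named entries. None of the 9 calls changed under either scaling, and Spred2 was called higher under the second (0.34). These WT comparisons share libraries. Summed levels of 5 primitive endoderm markers rose with the same step out of 2i medium, from 63.6 to 106 up to 1225 to 1511 at day 2, and those of 6 naive markers, Prdm14 among them, fell from 57435 to 60290 down to 8170 to 8179; Sox7 was at 0 in both WT 2i libraries. Of 5 formative markers, 4 were higher and 0 lower at day 2 than in 2i medium, where 12.7% and 10.8% of all genes were called. At day 4, 3 were higher than in 2i medium and 2 were lower. The lower ones were Fgf5 (group means of 14.3 in 2i medium and 1.08 at day 4) and Otx2 (25.1 and 6.75). The part of these markers in the differences was not tested.

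**Figure D2:**
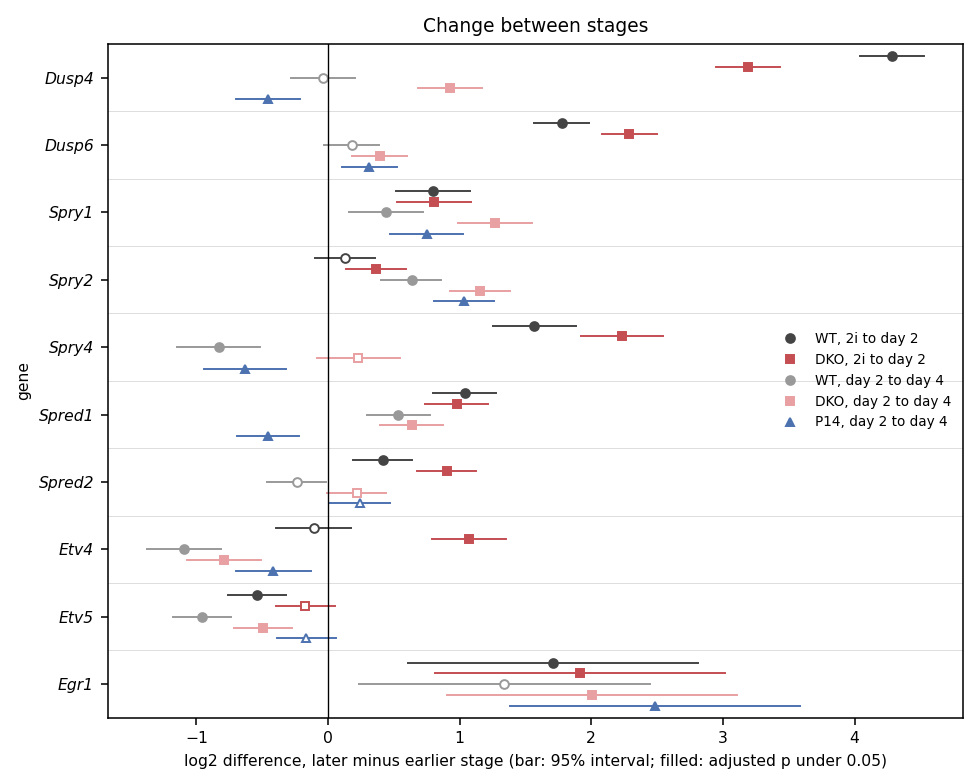
Log2 difference between neighbouring stages for each gene, later minus earlier, with 95% intervals (bars); filled symbols passed an adjusted p of 0.05 and open symbols did not. The step of Dusp4 out of 2i medium is the farthest from 0, at 4.29 in WT and 3.19 in libraries labelled DKO, and Etv4 and Etv5 lie below 0 in the WT step from day 2 to day 4.

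Libraries labelled DKO already differed from WT in 2i medium. There Dusp4, Spry2, Spry4 and Etv4 were lower than in WT cells, and none of the 10 genes was called higher by limma, whether at an adjusted p or at an unadjusted p under 0.05, nor by limma-voom on recovered reads. The background was 5.47% of all genes called lower and 3.19% called higher, and the median over the 10 genes was -0.38, beside 0.00 over all genes. Both libraries lay below both WT libraries for 9 of the 10 genes, where 26.0% of all genes did so; Etv5 was the exception, with 8989 and 9323 in libraries labelled DKO within and above the WT range.

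Of the phosphatases, Dusp4 stood at 98.6 and 103 in 2i libraries labelled DKO, under the 125 and 147 of WT (log2 -0.43, SE 0.11, adjusted p = 0.0305). Dusp6 held 624 and 662 (-0.33, adjusted p = 0.0503). Among Sprouty genes, Spry2 held 573 and 626, or 1.43-fold less than WT (adjusted p = 0.00711), and Spry4 held 304 and 302, or 1.60-fold less (adjusted p = 0.00878). Among the 4 called genes Etv4 showed the widest gap, with 2120 and 2313 against 3520 and 4322 (log2 -0.82, SE 0.13, adjusted p = 0.00114). Egr1, on few reads, differed more without passing (-1.28, 95% interval -2.38 to -0.18, adjusted p = 0.164). The calls depended on single libraries, except that of Etv4. Dusp4 was lost without WT 2i replicate 2 (-0.31) and without either 2i library labelled DKO, replicate 1 (-0.39) or 2 (-0.46), and Spry2 without WT 2i replicate 1 (-0.49) or DKO 2i replicate 1 (-0.45). Spry4 was lost without WT 2i replicate 2 (-0.63) and without either 2i library labelled DKO, replicate 1 (-0.69) or 2 (-0.68). In a fit of these 4 libraries alone 0 of the 10 genes passed at an adjusted p, and 5 were lower at an unadjusted p under 0.05. No share over all genes was computed at that unadjusted threshold, so the 5 are given only as a description. The 6 naive markers summed to 65768 to 66488 in these libraries labelled DKO and to 57435 to 60290 in WT. Of these, 2 were called higher and 0 lower. The 5 formative markers summed to 452 to 466 and to 862 to 911, with 1 called higher, Lef1, and 2 lower, Dnmt3b and Pou3f1. Over all genes, 3.19% were called higher and 5.47% lower. The part of these markers was not tested.

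At day 2, Dusp4 and Etv5 were the genes called between libraries labelled DKO and WT, in opposite directions. Dusp4 was 2.88-fold lower in libraries labelled DKO, with 909 and 943 against 2884 and 2462 (log2 -1.52, SE 0.11, adjusted p = 4.0e-07). Etv5 was higher, with 8151 and 8096 against 6069 and 5688 (log2 0.47, SE 0.10, adjusted p = 0.00743). The calls were thus 1 higher and 1 lower, where 5.98% and 6.64% of all genes were called; the median over the 10 genes was -0.10, beside 0.00. The call of Etv5 was lost without WT day 2 replicate 2 (0.42) or DKO day 2 replicate 1 (0.46). Dusp6 held 3141 and 3145, Spry4 1390.2 and 1466 and Etv4 4637 and 4681, with differences from WT of 0.19 (95% interval -0.02 to 0.39), -0.02 (-0.33 to 0.30) and 0.37 (0.09 to 0.65). In these day 2 libraries the 6 naive markers, all 6 called higher, summed to 26685 to 26694 under the DKO label and to 8170 to 8179 in WT (25338 to 25421 and 7457 to 7553 without Prdm14). The 5 formative markers, 3 of them called lower, summed to 1193 to 1392 and to 4150.3 to 4440, and the 5 primitive endoderm markers to 1397 to 1470 and to 1225 to 1511. The part of these markers was not tested.

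By day 4 most of the genes were higher in libraries labelled DKO than in WT cells. Dusp6, Spry1, Spry4, Spred2, Etv4 and Etv5 were higher and Dusp4 was lower, so that 6 and 1 of the 10 were called, where 6.95% of all genes were called higher and 6.80% lower. The median was 0.52, beside -0.03 over all genes. Both libraries lay above both WT libraries for 7 of the 10, where 24.6% of all genes did so.

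Dusp4 held 1847 and 1678 in libraries labelled DKO at day 4, still below the 2605 and 2577.5 of WT (log2 -0.56, SE 0.11, adjusted p = 0.00376). Dusp6 held 4270.1 and 3985, the highest levels of that gene in any library (log2 difference from WT 0.40, SE 0.10, adjusted p = 0.0116). The phosphatase genes thus lay on opposite sides of WT. The Dusp6 call was lost without WT day 4 replicate 1 (0.32) or DKO day 4 replicate 1 (0.35), and under scaling to that total (0.36).

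Spry4 showed the widest gap at day 4, with 1741 and 1614 against 802 and 823 in WT, or 2.06-fold (log2 1.04, SE 0.15, adjusted p = 1.7e-04). Spry1 held 788 and 831 against 533 and 502 (log2 0.64, SE 0.13, adjusted p = 0.00372). Spry2, with 1746 and 1683 against 1386 and 1510, did not overlap WT and did not pass (0.24, 95% interval 0.02 to 0.47, adjusted p = 0.153). The Spred genes parted: Spred2 was 1.64-fold higher, with 2382 and 2478.5 (adjusted p = 2.8e-04), and Spred1, with 2452 and 2873, overlapped WT (log2 -0.12, 95% interval -0.36 to 0.12). Etv5 at 5696 and 5840.2 was 1.91-fold higher than WT (log2 0.93, SE 0.10, adjusted p = 1.7e-05), and Etv4 at 2722 and 2672 was 1.60-fold higher (adjusted p = 0.00266). Egr1, with 66.9 and 63.0, was below both WT libraries without passing (log2 -0.42, 95% interval -1.52 to 0.69).

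At day 4 the 5 primitive endoderm markers summed to 3106 to 3180 in libraries labelled DKO and to 1035 to 1118 in WT, with none of the 5 at 0 in all libraries. The 6 naive markers summed to 10210.0 to 10248 and to 1413 to 1460.1, and 4 measured fibroblast markers to 57.3 to 74.7 and to 135 to 140.3. The part of these cell states in the differences was not tested.

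**Figure D3:**
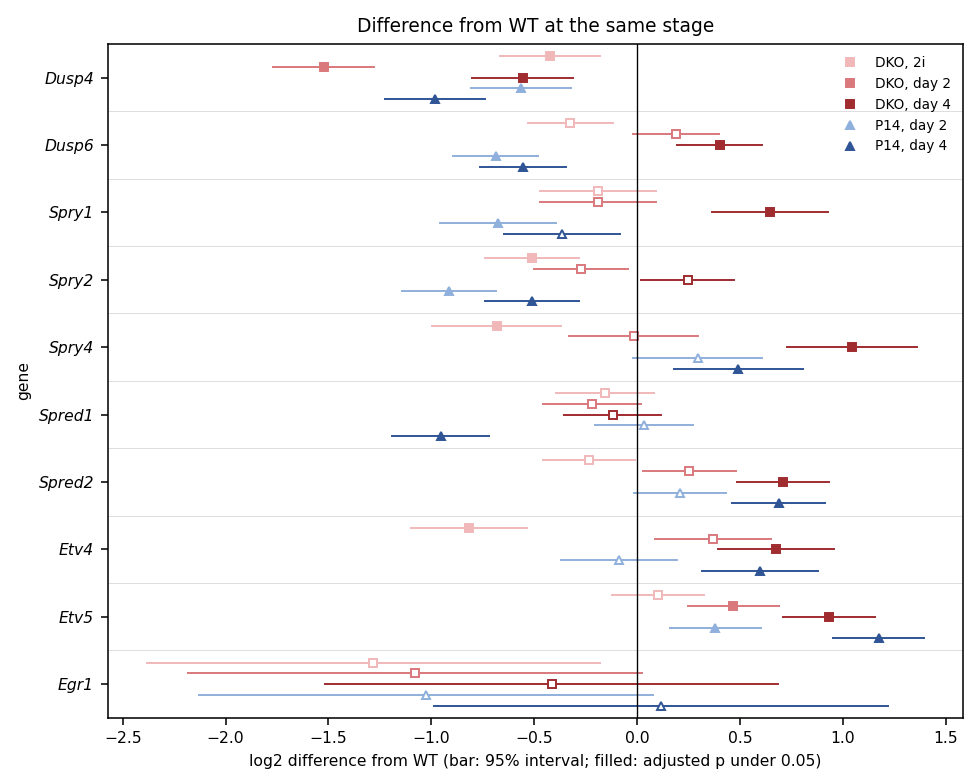
Log2 difference from WT at the same stage for libraries labelled DKO (red squares) and P14 (blue triangles), with 95% intervals (bars); filled symbols passed an adjusted p of 0.05. For libraries labelled DKO, Dusp6, Spry1, Spry2, Spry4, Spred2 and Etv4 lie below 0 in 2i medium and above 0 at day 4, whereas Dusp4 lies below 0 at each stage. Of the former genes, only Spry4 and Etv4 passed at both stages. A change of the gap from 2i medium to day 4 was not tested.

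Within libraries labelled DKO, 9 of the 10 genes rose from 2i medium to day 2, where 12.3% of all genes were called higher and 9.15% lower, with a median of 1.02 beside 0.02. Dusp4 rose 9.11-fold (log2 3.19), Dusp6 4.88-fold and Spry4 4.70-fold (adjusted p = 5.6e-11, 2.7e-10 and 3.0e-08). Etv4, flat in WT cells, rose 2.10-fold in these libraries (adjusted p = 2.2e-05). None of the 10 fell by limma, whether at an adjusted p or at an unadjusted p under 0.05, nor by limma-voom; Etv5 did not pass (log2 -0.17, 95% interval -0.39 to 0.05). Calls that single libraries decided were those of Spry2 (0.36, and 0.30 without DKO 2i replicate 1 or without DKO day 2 replicate 1) and Egr1 (1.91, and 1.16 without DKO 2i replicate 2 or 1.75 without DKO day 2 replicate 1). Egr1 rested on 6 and 2 reads in these 2i libraries.

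From day 2 to day 4, 6 genes rose further in libraries labelled DKO and Etv4 and Etv5 fell, where 10.5% of all genes were called higher and 9.59% lower. Spry1 rose 2.41-fold (log2 1.27, SE 0.13, adjusted p = 8.1e-06), Spry2 2.22-fold (1.15, adjusted p = 2.9e-06), Dusp4 1.90-fold (0.93, adjusted p = 4.1e-05) and Spred1 1.55-fold (0.63, adjusted p = 9.2e-04). Dusp6 (0.39, adjusted p = 0.0101) and Egr1 (2.00, adjusted p = 0.0126) made up the 6. The call of Dusp6 was lost without DKO day 2 replicate 1 (0.39) or replicate 2 (0.39) or DKO day 4 replicate 1 (0.34), and that of Egr1 without DKO day 2 replicate 2 (1.84) or DKO day 4 replicate 1 (1.96). Etv4 fell 1.73-fold and Etv5 1.41-fold (adjusted p = 6.3e-04 and 0.00344).

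Whether the gap between libraries labelled DKO and WT itself changed between stages was tested as an interaction. Between 2i medium and day 2, the gap moved down for Dusp4 (log2 -1.10, SE 0.16, adjusted p = 0.00106) and up for Etv4 (1.18, SE 0.19, adjusted p = 0.00181). Over all genes, 1.31% were called downward and 2.42% upward. Between day 2 and day 4, it moved up for 4 genes, where 4.53% of all genes were called upward and 4.07% downward: Spry4 (1.06, SE 0.21, adjusted p = 0.00483), Dusp4 (0.97, SE 0.16, adjusted p = 0.00149), Spry1 (0.83, SE 0.19, adjusted p = 0.0111) and Spry2 (0.52, SE 0.15, adjusted p = 0.0455). None moved down by limma, whether at an adjusted p or at an unadjusted p under 0.05, nor by limma-voom, and 6 moved up at the unadjusted threshold. The unadjusted count has no share over all genes beside it and is given only as a description. The call of Spry2 was lost when any library of the 4 groups was left out (WT day 2 replicates 1 and 2, WT day 4 replicates 1 and 2, DKO day 2 replicates 1 and 2 and DKO day 4 replicates 1 and 2; 0.46 to 0.58). Under scaling to the total over named entries, which shifts the median of all genes from -0.02 to -0.17 in this interaction, the values for Spry1 (0.68) and Spry2 (0.36) did not pass.

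Libraries labelled P14, with the highest Prdm14 levels of the series, held less of several brakes than WT cells at day 2. Dusp4, Dusp6, Spry1 and Spry2 were lower and Etv5 was higher, so that 4 and 1 of the 10 genes were called, where 4.69% of all genes were called lower and 3.69% higher. The median over the 10 was -0.33, beside 0.00 over all genes.

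Among the 5 called genes Spry2 had the widest gap at day 2, at 495 and 494 in libraries labelled P14 against 895 and 971 in WT, or 1.88-fold lower (log2 -0.91, SE 0.11, adjusted p = 5.2e-05). These are the lowest Spry2 levels of any group. Dusp6 held 1611 and 1820 against 2768 and 2752 (log2 -0.69, SE 0.10, adjusted p = 3.0e-04), and Spry1 held 211 and 270.1 against 384 and 379, or 1.60-fold lower (adjusted p = 0.00428). Dusp4 held 1819.5 and 1786, below both WT libraries (log2 -0.56, adjusted p = 0.00561), and its call was lost without WT day 2 replicate 1 (-0.45). Etv5 held 7290.5 and 8013 against 6069 and 5688 (log2 0.38, adjusted p = 0.0341). That call was lost without WT day 2 replicate 1 (0.43), WT day 2 replicate 2 (0.33) or P14 day 2 replicate 2 (0.31), and under either other scaling.

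Spry4, Spred1, Spred2, Etv4 and Egr1 did not pass at day 2. Spry4 held 2194 and 1430.0 in libraries labelled P14, a spread that overlaps WT (log2 0.29, 95% interval -0.02 to 0.61), and it was called higher without P14 day 2 replicate 2 (0.60). Spred1 at 2236 and 1859 differed from WT by 0.03 (95% interval -0.20 to 0.27), and Etv4 at 2910 and 3977 by -0.09 (-0.37 to 0.20). Egr1 at 10.1 and 25.3 differed by -1.02 (-2.13 to 0.08). In a fit of the 4 libraries alone, 1 of the 10 genes passed. The 5 primitive endoderm markers summed to 82.8 to 116 in libraries labelled P14 at day 2 and to 1225 to 1511 in WT. The 6 naive markers summed to 23559 to 24610 and to 8170 to 8179, but Prdm14 itself is among them, and the other 5, summed separately after the data were seen, came to 12523 to 13941 and to 7457 to 7553. What part these have in the lower values was not tested.

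At day 4 the genes divided evenly around WT in libraries labelled P14. Dusp4, Dusp6, Spry2 and Spred1 were lower and Spry4, Spred2, Etv4 and Etv5 were higher, 4 each, where 8.75% and 7.43% of all genes were called. The median over the 10 was -0.12, beside 0.00.

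Both phosphatase genes were lower at day 4 as well. Dusp4 held 1230.3 and 1399 against 2605 and 2577.5, or 1.97-fold lower (log2 -0.98, SE 0.11, adjusted p = 1.8e-05). Dusp6 held 2030.0 and 2229 against 2956 and 3302 (log2 -0.55, SE 0.10, adjusted p = 8.2e-04). Among the RAS-level inhibitors the direction varied by gene. Spred1 was 1.94-fold lower, with 1409 and 1569 against 2799 and 2970.2 (SE 0.11 on the log2 scale, adjusted p = 1.8e-05), while Spred2 was 1.61-fold higher, with 2355 and 2434 against 1455 and 1518 (adjusted p = 2.6e-04). Spry2 held 933 and 1104 (log2 -0.51, adjusted p = 0.00345), a call lost without P14 day 4 replicate 1 (-0.39). Spry4 held 1193 and 1096 against 802 and 823 (log2 0.49, adjusted p = 0.0326), and that call was lost without WT day 4 replicate 1 (0.47) or replicate 2 (0.51), without P14 day 4 replicate 1 (0.43) or replicate 2 (0.55), and under scaling to the total over named entries (0.46). Spry1 held 386 and 418, below both WT libraries, and did not pass (-0.36, 95% interval -0.65 to -0.08, adjusted p = 0.0758).

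The ETS factor Etv5 showed the largest difference of the 10 genes at day 4, with 6362 and 7301 in libraries labelled P14 against 2948 and 3099 in WT, or 2.25-fold (log2 1.17, SE 0.10, adjusted p = 1.2e-06). Etv4 held 2492 and 2612 against 1687 and 1691, or 1.51-fold higher (adjusted p = 0.00532). Neither gene overlapped WT. Egr1 held 85.0 and 104.7 against 86.3 and 87.6, which overlap (log2 0.12, 95% interval -0.99 to 1.22). At this stage the primitive endoderm markers summed to 215 to 221 in libraries labelled P14 and to 1035 to 1118 in WT, and the 5 naive markers other than Prdm14 to 6221 to 6589.5 and to 1241 to 1247. With Prdm14 the naive sums were 13275 to 14603 and 1413 to 1460.1. The part of these markers in the differences was not tested.

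Within libraries labelled P14, 4 genes rose and 4 fell between day 2 and day 4, where 11.5% and 11.0% of all genes were called. Spry2 rose 2.05-fold (log2 1.04, adjusted p = 6.9e-06), Spry1 1.68-fold (0.75, adjusted p = 7.8e-04) and Egr1 by 2.48 on the log2 scale (adjusted p = 0.00279), from 10.1 and 25.3 to the values above. Dusp6 was the other rise (0.31, adjusted p = 0.0306), lost without P14 day 2 replicate 1 (0.23) or P14 day 4 replicate 2 (0.24). The falls were in Dusp4 (-0.46, adjusted p = 0.00915), Spry4 (-0.63, adjusted p = 0.00602), Spred1 (1.37-fold, adjusted p = 0.00814) and Etv4 (1.33-fold, adjusted p = 0.0344). Those calls each depended on libraries: Dusp4 was lost without P14 day 4 replicate 1 (-0.37), Spry4 without P14 day 2 replicate 1 (-0.32) or P14 day 4 replicate 2 (-0.57), and Spred1 without P14 day 2 replicate 1 (-0.32) or P14 day 4 replicate 1 (-0.38). Etv4 was lost without P14 day 2 replicate 2 (-0.19), P14 day 4 replicate 1 (-0.38) or P14 day 4 replicate 2 (-0.45). In a fit of these 4 libraries alone 1 of the 10 genes passed in place of 8.

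The gap between libraries labelled P14 and WT moved between day 2 and day 4 for 3 of the 10 genes, 2 upward and 1 downward, where 2.50% of all genes were called upward and 2.93% downward. It moved down for Spred1 (log2 -0.99, SE 0.16, adjusted p = 0.00144), which rose in WT cells and fell in libraries labelled P14. It moved up for Etv5 (0.79, SE 0.15, adjusted p = 0.00421) and Etv4 (0.68, SE 0.19, adjusted p = 0.0469). The Etv4 call was lost without any of WT day 2 replicates 1 and 2, WT day 4 replicates 1 and 2, P14 day 2 replicate 1 and P14 day 4 replicates 1 and 2 (0.46 to 0.77), and also with a pseudocount of 0.1 and under scaling to the total over named entries.

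Libraries labelled P14 were also set directly against those labelled DKO. At day 2, Dusp6, Spry1, Spry2 and Etv4 were lower and Dusp4 was higher, where 8.03% and 7.86% of all genes were called. Dusp6 differed by log2 -0.88 (SE 0.10, adjusted p = 1.7e-05) and Dusp4 by 0.96 (SE 0.11, adjusted p = 3.2e-05), so that the phosphatase genes took opposite directions. Spry2 differed by -0.64 (adjusted p = 7.0e-04). The calls of Spry1 (-0.49, adjusted p = 0.0198) and Etv4 (-0.45, adjusted p = 0.0292) were lost without DKO day 2 replicate 1 (-0.52 and -0.46), DKO day 2 replicate 2 (-0.45 for each) or P14 day 2 replicate 1 (-0.31 and -0.23). Without P14 day 2 replicate 2, Spry4 (0.62) and Spred1 (0.39) were called higher. In a fit of the 4 libraries alone 2 of the 10 genes passed in place of 5.

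At day 4, 6 of the 10 genes were lower in libraries labelled P14 than in those labelled DKO, where 7.17% of all genes were called lower and 6.20% higher, with a median of -0.49 beside 0.01. They were Dusp4, Dusp6, Spry1, Spry2, Spry4 and Spred1. Spry1 was 2.01-fold lower (log2 -1.01, SE 0.13, adjusted p = 8.9e-05), Dusp6 1.94-fold (adjusted p = 8.2e-06), Spred1 1.78-fold (log2 -0.84, adjusted p = 1.1e-04) and Spry2 1.69-fold (adjusted p = 1.9e-04). None was higher by limma at an adjusted p or by limma-voom, and 1 was at an unadjusted p under 0.05. Spred2, which was higher than WT under each label, differed between the labels by -0.02 (95% interval -0.25 to 0.20). The call of Dusp4 (-0.42, adjusted p = 0.0217) was lost without DKO day 4 replicate 1 (-0.35) or P14 day 4 replicate 1 (-0.33), and that of Spry4 (-0.55, adjusted p = 0.0207) without DKO day 4 replicate 1 (-0.50) or replicate 2 (-0.61) or P14 day 4 replicate 1 (-0.61) or replicate 2 (-0.49). The differences from WT and from each other share libraries, so they are not separate evidence.

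Across the 8 groups the 10 genes did not form 1 block. Libraries labelled DKO in 2i medium were the lowest group for 7 of them, and the same libraries' day 4 group was the highest for 4, namely Dusp6, Spry1, Spry2 and Spred2. Both 2i groups were the lowest pair for Dusp4, Dusp6, Spry1, Spry4, Spred1, Spred2 and Egr1. No share over all genes was computed for these counts, which are given only as a description. From the lowest to the highest group mean the range was widest for Dusp4 (26.5-fold, 100.8 to 2673) and narrowest for Spred2 (2.17-fold, 1117 to 2430.2). Pearson correlations of group means, over 8 groups that share stages and libraries and so given only as a description, ran from 0.21 to 0.92 (median 0.76) among the 28 pairs without Etv4 and Etv5. Etv5 correlated below 0 with 8 of the other 9 genes (lowest -0.77) and at 0.62 with Etv4.

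**Figure D4:**
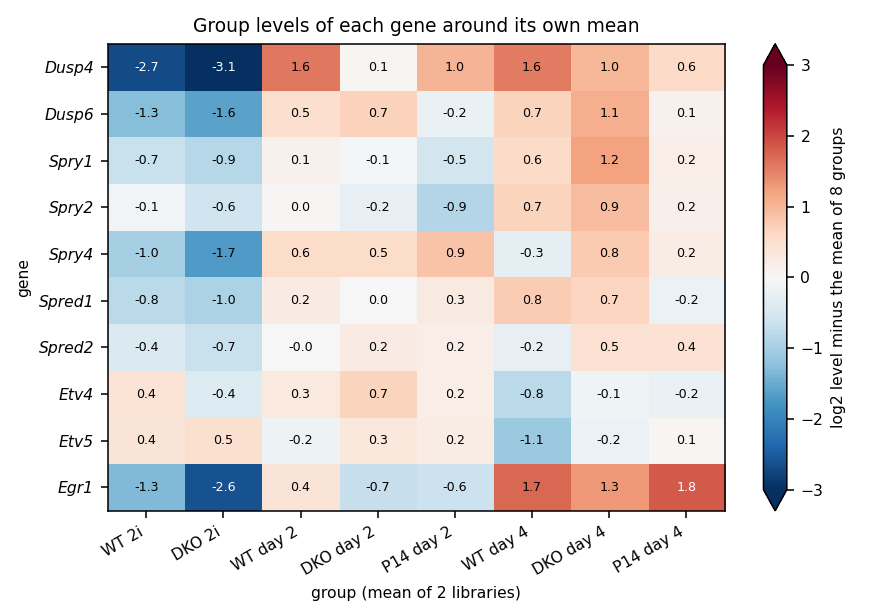
Mean log2 level of each gene in each of the 8 groups (mean of 2 libraries) minus that gene's mean over the groups, in log2 units; blue is below and red above the mean. The 2i columns are below 0 for all of the genes except Etv4 and Etv5, where WT 2i is above 0 for both and DKO 2i is above 0 for Etv5 only.

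In the order of levels, neighbouring groups often overlapped. For Dusp4 the libraries of WT day 2 and WT day 4 overlapped at the top, as did P14 day 2 and DKO day 4 below them, and the other neighbours were apart. Among the 7 neighbouring pairs, 1 overlapped for Dusp6 (DKO day 2 with WT day 4), 1 each for Spry1 and Spry2, 2 each for Dusp4, Spry4, Spred1, Etv4 and Egr1, 3 for Spred2 and 4 for Etv5. Per kilobase of annotated exon, which lets genes be compared, Etv5 was the most abundant of the 10 in WT cells in 2i medium (a mean of 2087 normalized counts per kilobase) and Egr1 the least (2.22). At day 4 of WT cells the order had changed at the top, with Dusp6 at 999, Dusp4 at 946 and Etv5 at 737 per kilobase, and Egr1 at 19.4.

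The genes whose group means were most like Dusp6 and Spry2 were sought among 12028 genes with a group mean of at least 50 in some group, by Pearson correlation over the 8 groups. For Dusp6 they were Cyp26a1 (0.982), Mrc2 (0.980) and Itga4 (0.979) and for Spry2 they were Mllt1 (0.968), P4ha1 (0.967) and Eif4enif1 (0.966). The correlation ignores the size of the change. Group means ran from 494 to 1714 for Spry2, 809 to 1117 for Mllt1, 260 to 448 for P4ha1 and 1666 to 2353 for Eif4enif1. These are the highest of many correlations over 8 groups, given only as a description. Cyp26a1, which encodes an enzyme that breaks down retinoic acid, had group means from 1.19 in libraries labelled DKO in 2i medium to 509 in those at day 4.

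Genes of the relay above the 10 were measured as well. Of 20 genes of the RAS to ERK core cascade, 3 were higher and 2 lower in WT cells from 2i medium to day 2 (median log2 -0.00, beside 0.03 over all genes), shares near the 12.7% and 10.8% of all genes called, led by Braf (log2 1.93, adjusted p = 2.5e-08), a RAF kinase gene. In libraries labelled DKO the adaptor gene Gab1, which links receptors to RAS, was lower than WT in 2i medium (-0.95, adjusted p = 3.4e-05), at day 2 (-0.76, adjusted p = 1.3e-04) and at day 4 (-0.96, adjusted p = 9.6e-06). In libraries labelled P14 the adaptor gene Shc1 was lower than WT at day 2 (-0.61, adjusted p = 6.2e-04) and at day 4 (-0.71, adjusted p = 6.5e-05). In all, 3 of the 20 were lower than WT in 2i libraries labelled DKO, 2 at day 2 and 1 at day 4. In libraries labelled P14, 1 was lower and 2 higher at day 2, and 2 were lower and 4 higher at day 4. The shares of all genes called lower were 5.47%, 6.64% and 6.80% for libraries labelled DKO, and for those labelled P14 they were 4.69% lower and 3.69% higher at day 2 and 8.75% lower and 7.43% higher at day 4.

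Other MAP kinase phosphatase genes, 8 in number, moved with the stages too. From 2i medium to day 2 of WT cells 4 of them rose, where 12.7% of all genes did, among them Dusp5 (log2 1.57, adjusted p = 0.00196), which encodes a nuclear ERK phosphatase, and Dusp9 (0.72, adjusted p = 2.4e-04). At day 4 Dusp9 was higher than WT in libraries labelled DKO (1.42, adjusted p = 4.7e-07) and in those labelled P14 (1.11, adjusted p = 5.0e-06), while Dusp5 was lower in both (-1.90 and -1.40, adjusted p = 8.3e-04 and 0.00659). In libraries labelled DKO at day 4 the list had 1 higher and 4 lower, where 6.95% and 6.80% of all genes were called, with a median of -0.68. Dusp5 and Dusp9 therefore lay on opposite sides of WT under both labels.

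Of 10 other antagonists of RAS and ERK, 8 were higher in WT cells at day 4 than in 2i medium, where 21.9% of all genes were called higher (median log2 1.04, beside 0.01). At day 2, 2 were higher and 1 was lower than in 2i medium. Pea15a, whose product holds ERK in the cytoplasm, rose by 2.02 (adjusted p = 1.6e-08), Il17rd, an FGF receptor antagonist gene, by 1.35 (adjusted p = 3.8e-08) after a fall of 0.65 to day 2 (adjusted p = 1.9e-04), and Lrig1 by 1.31 (adjusted p = 1.4e-07). At day 4, 4 of the 10 were lower than WT in libraries labelled DKO and 5 in those labelled P14, where 6.80% and 8.75% of all genes were called lower. Spred3, the relative of Spred1 and Spred2, was lower than WT in libraries labelled P14 at day 2 (-1.62, adjusted p = 0.00583) and day 4 (-2.28, adjusted p = 1.5e-04), and also in those labelled DKO at day 2 (-1.54, adjusted p = 0.00564) and day 4 (-1.40, adjusted p = 0.0095), the last a value named after it was seen.

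Among 9 other ETS family factors, the ERK-regulated repressor gene Erf fell in WT cells between day 2 and day 4 (log2 -1.35, adjusted p = 4.5e-07), the step in which Etv4 and Etv5 fell. At day 4, Erf was higher than WT in libraries labelled DKO (1.36, adjusted p = 1.3e-06), with group means of 6721 against 2621. In those labelled P14 its mean was 2883, which did not pass (0.14, adjusted p = 0.518), a value named after it was seen. At day 2, Erf was lower than WT in libraries labelled P14 (-1.26, adjusted p = 7.1e-06). Of 9 immediate early genes measured, Myc fell in the same WT step (-2.07, adjusted p = 5.5e-09) and was higher than WT at day 4 in libraries labelled DKO (1.50, adjusted p = 4.8e-07), while Jun rose in WT cells (2.43, adjusted p = 2.3e-07) and was lower than WT at day 4 in libraries labelled DKO (-1.03, adjusted p = 0.00237) and P14 (-1.63, adjusted p = 2.9e-05). Of 4 further genes used to gauge MAP kinase activity, the receptor gene Epha4 was lower than WT in libraries labelled P14 at day 2 (log2 -2.35, adjusted p = 2.9e-08) and at day 4 (-2.27, adjusted p = 1.9e-08). In libraries labelled DKO, Epha4 was higher than WT at day 2 (0.87, adjusted p = 4.8e-04) and lower at day 4 (-0.64, adjusted p = 0.00438). At day 4 in those libraries, Epha2, another receptor gene, was higher than WT (1.79, adjusted p = 1.0e-08) and the cyclin gene Ccnd1 was lower (-1.51, adjusted p = 2.3e-07). Of the 4 genes, 1 was higher and 2 were lower, where 6.95% and 6.80% of all genes were called. Their median was -0.20, beside -0.03 over all genes. Egr2 and Egr3 were not analysed here.

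The ligand and receptors that feed the relay changed in WT cells. Fgf4, which encodes the FGF ligand of naive cells, fell in group mean from 1870 in 2i medium to 765 by day 2 and to 19.5 by day 4, when it was higher than WT in libraries labelled DKO (113, log2 2.50, adjusted p = 4.4e-08) and P14 (79.7, log2 2.00, adjusted p = 3.5e-07). Fgfr1, a receptor gene, was lower than WT at day 4 in libraries labelled P14 (709 against 2800.4, log2 -1.98, adjusted p = 1.4e-08) and in those labelled DKO (1828, -0.62, adjusted p = 0.00169). Fgfr2 rose in WT cells from 283 in 2i medium to 815 at day 2 (log2 1.53, adjusted p = 2.9e-07) and was lower than WT at day 2 in libraries labelled P14 (497, -0.71, adjusted p = 0.00204).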

How the data were processed

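The deposited values were log2 values, the log2 of a normalized read count plus 4. Per the submitters' processing notes, Trim Galore, HISAT2 and featureCounts were used with mm10 (GRCm38); the sources used here give no versions, settings or counting strand. The library kit keeps strand, per the labels' protocols. After raising 2 to each deposited value and subtracting 4, the values were whole multiples of 1 step per library, within 0.1 of a whole number for 100% of those under 1000 reads, which gave recovered reads and totals of 20696338 to 32710605.

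All groups were fitted together with limma 3.58.1 (R 4.3.3) on log2(normalized count + 1), with a trended variance and 1 mean per group, over the 21450 genes whose normalized count reached 1 in at least 2 libraries. Benjamini-Hochberg adjustment ran over all genes within each of 16 comparisons, 3 of them interactions, and not across comparisons. The planned count test was not the main test, because the deposited unit is not raw counts. Of 22122 entries, 667 without a symbol (7.61% to 11.1% of reads) were not tested. Gene positions come from GENCODE M21 and promoter windows from RefSeq. The procedure was tested on simulated data.

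The 10 genes and the pathway and marker lists were chosen with earlier results of these data known. Beyond the 10, at most 3 genes per list and comparison are named, those with the smallest adjusted p and a mean of at least 10. Tables and figures used Python 3.11.15, pandas 2.3.3, numpy 2.4.6 and matplotlib 3.10.9. Alternatives were other pseudocounts, filters and scalings, limma-voom, separate fits, a replicate block and leaving out each library. A result of the search for genes with similar group means is not reported here.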

Additional observations from a re-analysis of the deposited data

Results flagged for a closer look

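The difference from WT itself changed between stages, by an interaction term in limma, for 9 values of the 10 genes, each with its SE and adjusted p in the report. For libraries labelled DKO, going from 2i medium to day 2, the change in the difference was -1.10 on the log2 scale for Dusp4 and 1.18 for Etv4. From day 2 to day 4 it was 0.97 for Dusp4, 0.83 for Spry1, 0.52 for Spry2 and 1.06 for Spry4. For libraries labelled P14, from day 2 to day 4, it was -0.99 for Spred1, 0.68 for Etv4 and 0.79 for Etv5. Dusp4 in libraries labelled DKO is the gene whose difference widened in the first step and narrowed in the second, from -0.43 in 2i medium to -1.52 at day 2 and -0.56 at day 4. With 2 libraries per group, no library could be set against the others of its group.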

How the results depend on the processing

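Of 160 differences, 10 genes in 16 comparisons, none that was called changed direction under any alternative, and among 916 values past the threshold in neither fit 31 changed sign. The side of the threshold held for 159 of 160 with a pseudocount of 4, 157 with 0.1, 160 with no filter, 159 with a minimum of 10, 150 under scaling to the total over named entries, 156 with limma-voom, 152 with libraries centred on the median gene and 129 in fits of the compared groups alone. Such separate fits have few residual degrees of freedom, and they moved the number of genes called from 4 to 0 for DKO against WT in 2i medium, from 5 to 1 for P14 against WT at day 2, from 5 to 2 for P14 against DKO at day 2, from 8 to 1 for P14 between day 2 and day 4, and from 2 to 4 for the DKO interaction between 2i medium and day 2. Scaling to the total moved the DKO interaction between day 2 and day 4 from 4 to 2. Leaving out a library, which leaves 1 group with a lone sample assumed to vary like the other groups, kept the side of the threshold for 677 of 760 values. The number called ranged from 1 to 3 for DKO against WT in 2i medium, 1 to 2 at day 2, 3 to 5 for P14 against WT at day 2, 3 to 7 for P14 against DKO at day 2, and 5 to 7 for P14 between day 2 and day 4. Causes were not tested beyond the loss of samples.

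Beyond the shifts given in the report, scaling to the total moved the median of all genes to 0.13 for WT day 4 against day 2 (and centring to -0.16), 0.15 for DKO day 2 against 2i medium, -0.14 for P14 against DKO at day 2, 0.11 for DKO against WT at day 2 and 0.11 for P14 day 4 against day 2. Pairing by replicate number was examined through the difference of replicate 1 minus replicate 2 in each group. Between groups these differences correlated at -0.268 to 0.231, and over 0.1 in 3 of 28 pairs of groups. Replicate 2 held more recovered reads than replicate 1 in each group, for example 31392908 against 21218134 for WT in 2i medium. Whether same-numbered libraries share a batch was not tested. A replicate block kept 157 of 160 values on their side and added 3 calls, Dusp6 for DKO against WT in 2i medium (adjusted p = 0.0423, limma) and for its interaction to day 2 (0.0447), and Etv5 for the DKO interaction from day 2 to day 4 (0.0496). Depth limits Egr1, which had 2 to 104 reads per library.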
